A study of Caenorhabditis elegans with 2 samples.

Results

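The genes described here are the cuticle collagen genes of Caenorhabditis elegans, taken from the Ensembl release 115 annotation of WBcel235 (the ce11 build) by symbol. They are the protein-coding genes named col- plus a number, together with dpy-2, dpy-3, dpy-4, dpy-5, dpy-7, dpy-8, dpy-9, dpy-10, dpy-13, dpy-14, dpy-17, rol-6, rol-8, sqt-1, sqt-2, sqt-3, bli-1 and bli-2. The rule found 174 genes among 19973 protein-coding genes. Of these, 156 carry a col- symbol and 18 a dpy, rol, sqt or bli symbol. MEP-1 occupancy was mapped by ChIP-seq, in which DNA bound by a protein is immunoprecipitated and sequenced, with an eGFP-tagged MEP-1. The animals were whole mixed-stage embryos of both sexes from strain OP70, genotype unc-119(ed3) III; wgIs70, where wgIs70 is the transgene insertion for mep-1. The labels give 1 group with 2 biological replicates and a fragment size range of 150 to 350 bp. Nothing was compared over conditions, because both replicates carry the same transgene and stage, and the labels do not say which promoter drives it or how close its level is to that of the endogenous protein.

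Cuticle collagens are secreted by the epidermis and build the worm's exoskeleton. Each chain carries stretches of the triplet Gly-X-Y with a glycine at the start of every triplet, and the chains wind into a triple helix. The genes are transcribed in timed waves, first in the late embryo and then again before each moult, and single mutations give short (dpy, dumpy), twisted (rol, roller), squat (sqt) or blistered (bli) worms. MEP-1, a protein with zinc fingers, acts in a complex with the Mi-2 remodeller LET-418, known for repressing germline genes in somatic cells. No expression was measured here, and in whole embryos strong binding in a few cells and weak binding in many cannot be told apart.

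The collagen part of the label was checked against the encoded proteins. Gly-X-Y runs do not show whether a collagen is part of the cuticle, and members were kept by symbol whatever their run. Translated from the longest annotated coding sequence, the 174 proteins had a median length of 304 residues, from 154 to 948, and a median longest uninterrupted Gly-X-Y run of 21 triplets. Only COL-17 had a longest run under 5 triplets, at 1. COL-135, at 154 triplets, and COL-99, a transmembrane collagen with a run of 33 triplets in 735 residues, were the members with the most triplets in all. Both were chosen after their values were seen. The longest protein was BLI-1, a collagen of the adult struts, at 948 residues.

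The deposited lists give regions with a summit, the point of highest signal, and a signal value set by the peak caller. A summit was placed in a promoter when it lay between 1000 bp upstream and 200 bp downstream of a gene's annotated 5′ end, and distances below are negative upstream of that end. The thresholded set, filtered by the irreproducible discovery rate (IDR) between replicates, placed a summit in 3 collagen promoters, those of col-38, col-71 and col-185, where 11.4% of all protein-coding genes had one. The sequences under these summits are shown because they are the IDR summits inside collagen promoter windows, and that at col-185 runs into another gene. Each is 121 bases centred on the summit, read 5′ to 3′ on the strand of the collagen gene, the minus strand in all 3, from the RefSeq WBcel235 genome (ce11). The capitals at col-185 mark the bases of an annotated tRNA gene on the same strand; nothing is marked in the other two. The windows are chrII:8569461-8569581, chrII:3502771-3502891 and chrX:13511993-13512113.
col-38: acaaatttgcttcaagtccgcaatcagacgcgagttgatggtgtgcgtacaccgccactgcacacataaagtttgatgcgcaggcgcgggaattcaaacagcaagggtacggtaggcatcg
col-71: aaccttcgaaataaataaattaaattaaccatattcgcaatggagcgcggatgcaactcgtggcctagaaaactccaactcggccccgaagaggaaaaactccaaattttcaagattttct
col-185: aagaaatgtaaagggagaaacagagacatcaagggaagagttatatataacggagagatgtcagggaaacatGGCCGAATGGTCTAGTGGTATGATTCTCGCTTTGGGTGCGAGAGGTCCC
The 3 windows differed in base composition, at 52.1% G+C for col-38, 39.7% for col-71 and 45.5% for col-185.

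The col-38 region was the strongest in any collagen promoter. Its gene lies at chrII:8568035-8569088 on the minus strand, and the region at chrII:8569353-8569688 had its summit at 8569521, -433 bp from the 5′ end. The signal was 109.6 in the pooled list, rank 167 of 30000 regions, with 21.8 in replicate 1 (rank 303 of 25216) and 87.5 in replicate 2 (rank 190 of 30000). Both replicates therefore held a high-ranking region there. The same summit lay at -406 bp from rpl-5, which is transcribed away from col-38 and encodes a protein of the large ribosomal subunit. It was also inside 2 annotated noncoding RNA genes, at 41 bp into F54C9.17 and 90 bp into F54C9.16. The 5′ end of col-38 was thus not the nearest annotated start.

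The col-71 gene lies at chrII:3500077-3502570 on the minus strand. Its region, chrII:3502663-3502998, had a summit at 3502831, -261 bp from the 5′ end, with a pooled signal of 57.5 at rank 1010. Replicate 1 gave 13.7 at rank 899 and replicate 2 gave 47.6 at rank 967, so the 3 lists ranked it within a narrow span. A second protein-coding gene, Y49F6B.2, starts in the opposite direction, and the summit was closer to it, at -137 bp.

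The col-185 gene lies at chrX:13510035-13511097 on the minus strand. Its region, chrX:13511885-13512220, had a summit at 13512053, -956 bp from the 5′ end and so near the far edge of the window. The pooled signal was 45.3 at rank 1565, replicate 1 gave 8.64 at rank 2135 and replicate 2 gave 36.7 at rank 1590. No other protein-coding promoter held this summit, which made col-185 the 1 member to which an IDR promoter summit was nearest among protein-coding 5′ ends. The tRNA gene shown in capitals starts 12 bases beyond the summit, however, and the 5′ end of the noncoding RNA gene H06A10.3 was 92 bp away. When genes of every biotype were allowed to compete, 0 of the 3 summits were nearest to the collagen. How often this holds over all genes was not counted.

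**Figure D1:**
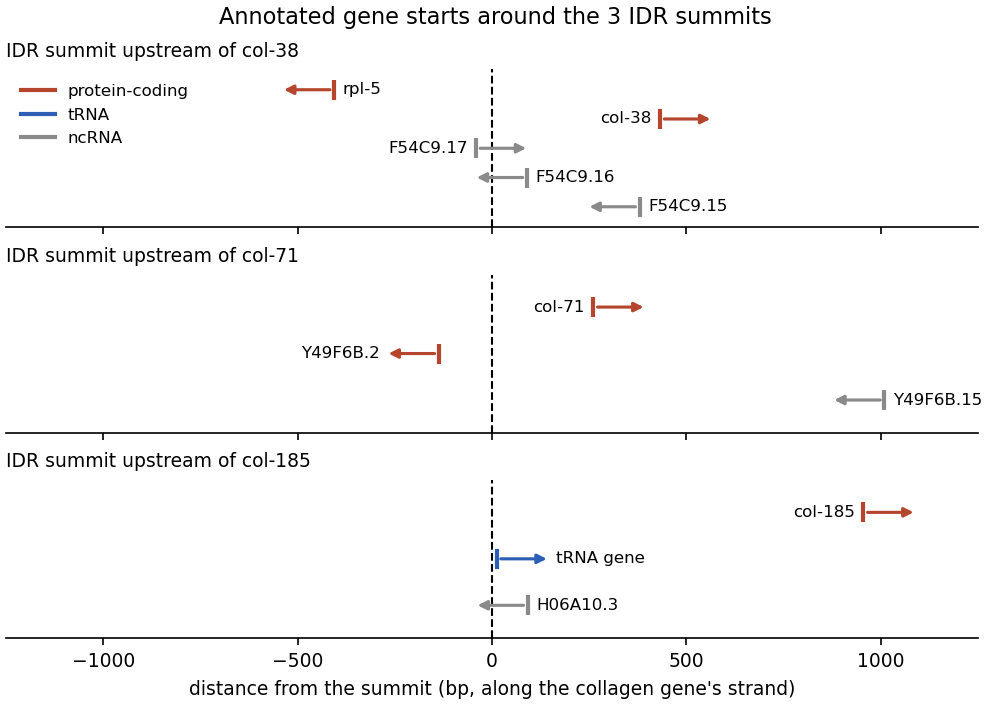
Annotated 5′ ends (vertical ticks) around the 3 IDR summits in collagen promoters, by distance from the summit in bp along the collagen gene's strand (horizontal axis), with protein-coding, tRNA and noncoding RNA genes in separate colours. Arrows give the direction of transcription and not gene length, and the dashed line is the summit, from which the collagen 5′ ends lie 433, 261 and 956 bp downstream.

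Across the family the candidate lists, which hold weak regions and background as well as peaks, gave more promoters, again below the level of all genes. The pooled list placed a summit in 39 collagen promoters, 22.4% (exact Clopper-Pearson 95% interval 16.5 to 29.3%), against 39.2% of all protein-coding genes. Replicate 1 alone placed one in 35, 20.1% (14.4 to 26.8%), against 34.6%, and replicate 2 in 51, 29.3% (22.7 to 36.7%), against 39.7%. A summit in both replicates was found at 18 members, 10.3%, against 23.6%. The IDR share was 1.72% (0.357 to 4.96%). The collagen share was lower than the share of all genes in each of these lists, and each interval ended below it. The intervals cover counting error over genes only and treat genes as independent. Of the members, 53 (30.5%) lay within 5000 bp of another member. The lists also share reads or regions, so they are not separate support. In 104 members no list placed a summit in the promoter, which left 70, or 40.2%, with at least 1, against 52.8%.

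**Figure D2:**
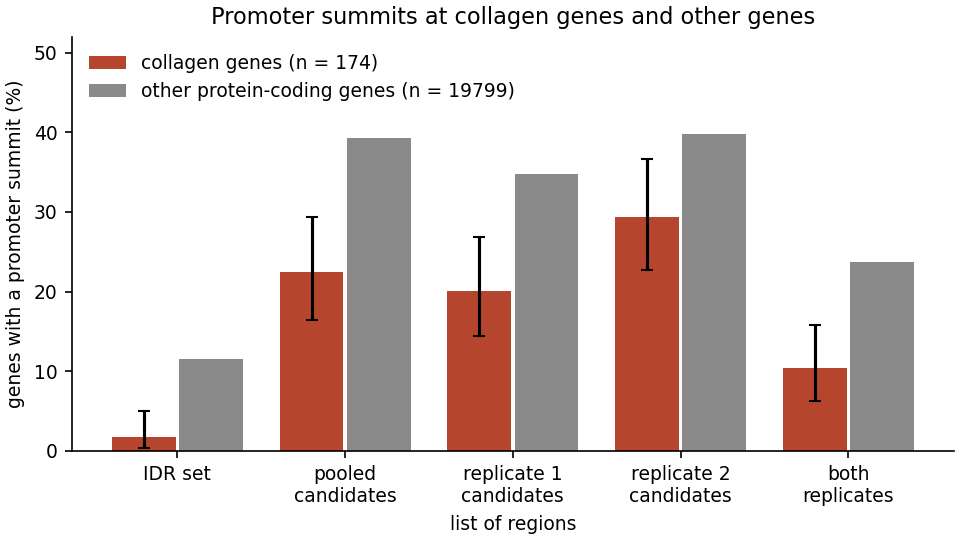
Share of genes with a promoter summit (vertical axis, %) in each list for the 174 collagen genes and the 19799 other protein-coding genes; lines on the collagen bars are exact 95% intervals. The collagen bar is the lower of each pair, from 1.72% in the IDR set to 29.3% in replicate 2.

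Where a collagen promoter did hold a pooled candidate, it was usually a weak one. The strongest candidate of each of the 39 members ran from 6.75 to 109.6, with a median signal of 10.4 and quartiles of 7.72 and 15.5. The lowest signal of any region in the pooled list was 6.55. Its median deposited −log10 q-value was 0.227, so much of the list is not set apart from background. Over the 7822 protein-coding genes with a candidate, the median was 16.04 and the quartiles 9.63 and 39.1. Only 7.69% of the collagen candidates reached IDR strength, against 29.1% over all genes with one. Within the replicate lists the medians were 3.82 against 4.60 in replicate 1 and 9.13 against 13.01 in replicate 2. The signal scales of the lists differ, so values are set side by side within a list only.

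The weakest IDR region had a signal of 34.2. The strongest members outside the IDR set were col-8, dpy-10 and col-166, while col-185, at 45.3, was the weakest member inside. The col-8 candidate on chromosome III had a pooled signal of 32.6 at rank 2567, with its summit at -917 bp and 311 bp into rfl-1, which encodes the activating enzyme subunit for the ubiquitin-like protein NED8. Replicate summits within 100 bp of it had signals of 4.43 in replicate 1 (rank 8071) and 12.2 in replicate 2 (rank 8391). The strongest replicate 2 region in the col-8 promoter was 25.3 at rank 2771, with its summit at -802 bp and so just beyond that distance. The col-166 candidate on the X chromosome had 27.6 at rank 3187, -216 bp from its 5′ end, with 26.1 in replicate 2 (rank 2665) and no replicate 1 summit within 100 bp. At neither of these 2 members did both replicates hold a summit within 100 bp that ranked as high as the pooled one.

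The gene dpy-10, which encodes a collagen of the annular furrows, had matched summits of like rank in both replicates. Its candidate, on chromosome II, had a pooled signal of 30.5 at rank 2801, with 6.88 in replicate 1 (rank 3361) and 22.7 in replicate 2 (rank 3198). The summit was at -206 bp, and no other protein-coding promoter held it. It lay inside the protein-coding gene T14B4.19, 498 bp from that gene's 5′ end, and the noncoding RNA gene T14B4.14 was nearer than dpy-10, at -111 bp. The sequence of chrII:6712373-6712493 (ce11, minus strand, the gene's own) is shown because it is the strongest promoter candidate of a dpy, rol, sqt or bli gene. The capitals mark a GATAAG match, which lies on the opposite strand and so reads as its reverse complement here.
dpy-10: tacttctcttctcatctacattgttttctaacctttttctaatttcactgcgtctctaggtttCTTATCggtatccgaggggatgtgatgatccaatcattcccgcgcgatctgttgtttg
GATAAG is the core letter string bound by GATA factors, the class to which the epidermal regulators ELT-1 and ELT-3 belong. The match is a description of the letters only.

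**Figure D3:**
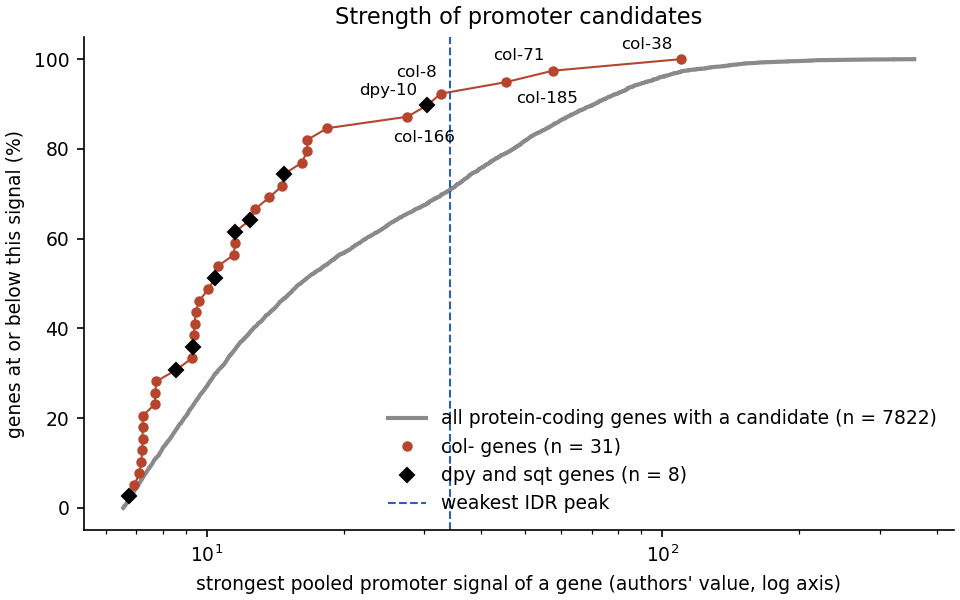
Cumulative share of genes (vertical axis, %) by the signal of their strongest pooled promoter candidate (horizontal axis, the authors' value, log scale) for all 7822 protein-coding genes with one, 31 col- genes and 8 dpy and sqt genes. The dashed line is the weakest IDR region, at 34.2; 3 collagens lie to its right and the collagen points lie above the grey curve for nearly their whole length.

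Grouped by role, the members with a mutant phenotype held pooled candidates more often than the numbered ones, but weak ones. Of the 18 dpy, rol, sqt and bli genes, 8 had a pooled candidate (44.4%, against 39.2% of all genes), with a median signal of 11.0. In replicate 1, 9 had a candidate (50%, against 34.6%), and in replicate 2 also 9 (50%, against 39.7%). An IDR summit was found at 0 of them, against 11.4% of all genes. Of the 156 numbered genes, 31 had a pooled candidate (19.9%), with a median of 10.1. The groups are small and the difference between them was not tested.

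Among the 6 furrow collagens, whose loss disturbs the circumferential furrows of the cuticle, 3 had a pooled candidate. Besides dpy-10, these were dpy-7, at 14.8 and -283 bp with 14.7 in replicate 2 and no summit in its replicate 1 promoter, and dpy-8, at 6.75 and -41 bp with 10.4 in replicate 2. The dpy-8 region in replicate 1, 2.09 at -581 bp, was at another position. The pooled dpy-8 signal was close to the lowest in the list, 6.55, with a −log10 q-value of 0.0648. For dpy-2, replicate 1 alone placed a region, at 4.40 and -194 bp. No list placed one in the promoters of dpy-3 or dpy-9. The furrow genes therefore ranged from a pooled signal of 30.5 at dpy-10, below the weakest IDR region at 34.2, to no region at all.

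Of the annulus collagens, which build the bands between furrows, dpy-13 had a pooled candidate of 10.4 at -188 bp. Its strongest replicate 2 promoter region was 8.10 at -346 bp, and replicate 1 had none. A weaker replicate 2 summit, at 5.48, lay 43 bp from the pooled one. The pooled summit was closer to zipt-2.2, a zinc transporter gene, at -61 bp. The dpy-4 candidate, 8.56 at 79 bp, had no replicate 2 region in the promoter and 2.64 in replicate 1 at -648 bp. For dpy-5 the pooled list had none, while replicate 1 gave 4.56 at -52 bp and replicate 2 gave 6.20 at -314 bp. Of these 3 genes only dpy-5 had a promoter region in both replicates, and there the strongest summits were not together.

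The collagens needed in embryonic elongation and early larvae held only weak candidates. The −log10 q-values of the strongest pooled ones were 0.317 at dpy-17 and 0.171 at sqt-3, so neither is set apart from background. The dpy-17 gene had 3 pooled candidates, the strongest at 11.5 and 103 bp, with 4.84 in replicate 1 at -152 bp and 11.0 in replicate 2 at 89 bp. The sqt-3 candidate was 9.33 at -508 bp, with 7.56 in replicate 2 at -548 bp and no replicate 1 region in the promoter. The dpy-14 promoter had only replicate regions, 3.997 at -105 bp and 5.79 at -245 bp. These 3 genes are known for transcription in the embryo, the stage sampled here, and their signals lay within the range of the other collagens.

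Of the squat and roller collagens, in which particular mutations twist the body, sqt-2 had 2 pooled candidates, the stronger at 12.4 and -239 bp. Its strongest promoter regions were 3.46 in replicate 1 at -441 bp and 9.76 in replicate 2 at -807 bp. Weaker replicate summits matched the stronger pooled one, at 2.83 and 13 bp away in replicate 1 and 5.54 and 32 bp away in replicate 2. For sqt-1, replicate 1 alone gave a region, 2.57 at 182 bp. The promoters of rol-6 and rol-8, and of the strut collagens bli-1 and bli-2, held no summit in any of the 4 lists.

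The remaining numbered members with the strongest candidates were col-106 (pooled signal 18.4), col-63 (16.6), col-96 (16.6), col-42 (16.2), col-10 (14.6), col-85 (13.7), col-111 (12.8), col-164 (11.5) and col-109 (11.5). Their ranks in the pooled list ran from 5555 to 12533 of 30000. The strongest candidates of col-159 and col-160 were the same region, at 7.22, so the 39 members rested on 38 distinct regions. In 6 of the 39 the strongest candidate was also in another protein-coding promoter, and among the promoters holding it the member's own 5′ end was nearest in 34. Among the 5′ ends of all protein-coding genes the member's was nearest in 33, and among genes of every biotype in 25. These counts were not made over all genes, so they describe the members only. For example, the noncoding RNA gene ZK265.11 was at -23 bp from the col-63 summit, where col-63 was at -682 bp.

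The replicates seldom both placed a summit where the pooled list did. Of the 39 pooled candidates, 8 (20.5%) had a summit within 100 bp in both replicates, against 39.7% over the 7822 genes with a candidate. Replicate 2 held a matching summit for 34 (87.2%, against 83.3%), replicate 1 for 9 (23.1%, against 46.3%), and neither replicate for 4 (10.3%, against 10.2%). The collagen share was thus the lower one in replicate 1 and not in replicate 2, a difference that was not tested. The collagen candidates were also weaker, at a median of 10.4 against 16.04, and the part of signal strength was not tested. Independent of the pooled list, 6 members had replicate 1 and replicate 2 promoter summits within 100 bp of each other: col-10, col-185, col-38, col-71, dpy-10 and sqt-2. That is 3.45% of the family, against 15.7% of all protein-coding genes.

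A further 31 members had a promoter region in a replicate but none in the pooled list, and 2 had one in the pooled list alone. Neither count was made over all genes, so both describe the members only. The strongest region among the 31 was at col-2, chosen after its values were seen, where replicate 1 gave 14.4 at rank 826 and -436 bp. It was among the 2404 strongest regions of replicate 1, of which 4 collagen promoters held one, against 9.43% of genes. Neither replicate 2 nor the pooled list placed a summit in the col-2 promoter. Of the 2404 strongest regions of replicate 2, the number of collagen promoters was 3, against 11.0% of genes.

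Summits of all protein-coding genes piled up just upstream of the 5′ end, and those of the collagens did so less. In the 250 bp upstream of the 5′ end, the pooled list had 0.659 summits per kb per gene over all genes and 0.299 over collagens, from 13 summits. The IDR set had 0.231 per kb over all genes, from 1151 summits, and 0 over the collagens. Over the whole promoter windows, pooled summits numbered 201.0 per Mb for collagens, 403.3 per Mb for all genes and 299.2 per Mb for the genome. The collagen promoters were thus below the genome's mean density as well as below other promoters. Their strongest candidates also lay further out, with a median position of -393 bp, against -262 bp over all genes.

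**Figure D4:**
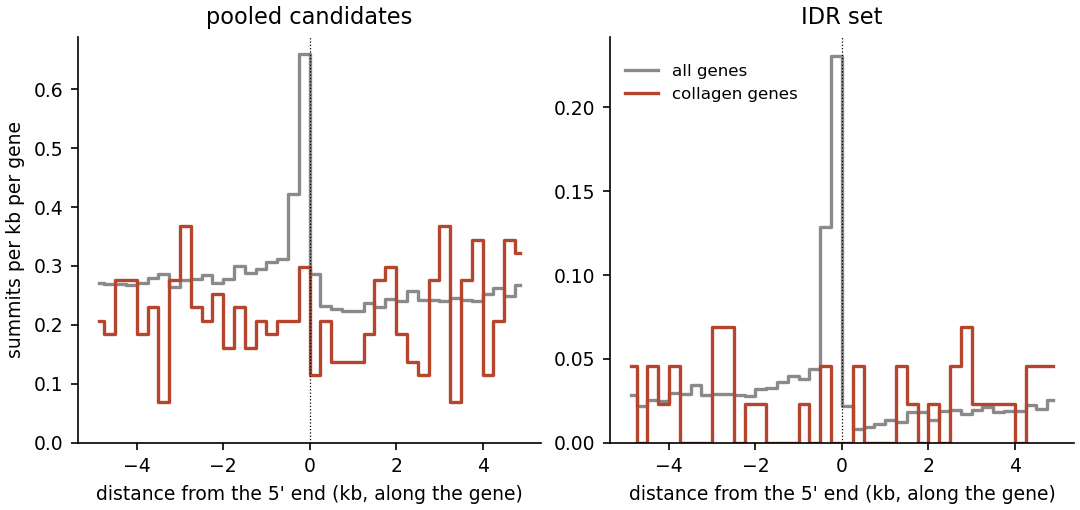
Summits per kb per gene (vertical axis) in 250 bp bins by distance from the 5′ end along the gene (horizontal axis, kb), for pooled candidates (left) and the IDR set (right), with the 174 collagen genes and all 19973 protein-coding genes as lines. The bin just upstream of the 5′ end holds 0.659 pooled summits per kb per gene over all genes and 0.299 over collagens.

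Measured without a window, the nearest IDR summit was a median of 16655 bp from a collagen 5′ end (quartiles 7545 and 32832 bp), against 14237 bp over all protein-coding genes (4498 and 33431 bp). Within 5000 bp there was one for 32 members, 18.4%, against 26.6%. Beyond 20000 bp the shares were 43.1% and 40.1%. The medians were of like size, and the gap was in the genes with a summit close by.

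IDR summits near collagens often sat at another annotated gene. Within 2000 bp of a collagen 5′ end or inside a collagen gene there were 11 pairs of summit and member, over 10 members. In 10 of them the 5′ end of another gene of any biotype was nearer. The like count was not made around all genes, so this is not shown to be particular to collagens. At 5 of the 11 (45.5%) the summit was inside a tRNA gene or within 100 bp of one, against 103 of all 2404 IDR summits (4.28%). The 2 sets are unlike, since the 11 were picked by distance and mostly lie outside promoter windows. The share around all genes picked in that way was not computed, so a trait of collagens is not shown. The members concerned were col-185, col-85 and, named after their values were seen, col-72, col-99 and col-181. In 3 of these genes, col-72, col-85 and col-99, the tRNA gene and the summit lay inside the collagen gene, at signals of 43.1, 56.9 and 55.9. The 1 summit closest to its own collagen was a second one in col-72, 402 bp inside the gene, with a signal of 67.2 and a width of 138 bp where most regions were 336 bp wide. It lay outside the promoter window.

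The 3 other members near an IDR summit had a protein-coding or small nuclear RNA gene beside it. Near sqt-2 the IDR summit, 1317 bp beyond its 5′ end with a signal of 52.2, was at -24 bp from enee-1. Near dpy-17 it was 1600 bp beyond, at 74.7, and -771 bp from sax-2, which encodes a Furry-like protein of neuronal shape. At col-94, also outside the rule for named genes, the summit at -1781 bp had a signal of 102.4 and lay -25 bp from the small nuclear RNA gene R07E5.16. All 3 summits were outside the promoter windows of the collagens.

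The members were also split by whether they share their upstream region with another gene. A protein-coding gene starting in the opposite direction lay within 1000 bp upstream of 20 collagens (11.5%), against 17.7% of all genes. Of these 20, 2 had an IDR summit (10%) and 5 a pooled candidate (25%). Of the 154 without such a neighbour, 1 had an IDR summit (0.649%) and 34 a pooled candidate (22.1%). Over all genes the IDR shares were 31.6% with such a neighbour and 7.05% without. The pooled shares over all genes were 55.4% and 35.7%. In both layouts and both lists the collagen share was the lower one. By chromosome, the pooled share was 36.7% on X (11 of 30 collagens, against 41.3% of its genes) and between 17.4% and 23.1% on the other 5, where 27.2% to 51.4% of genes had a candidate. The 44 collagens of chromosome IV, the largest group, had 0 IDR summits, against 10.2% of its genes. They had 9 pooled candidates (20.5%, against 36.8%). The collagens of chromosomes I, III and V also had 0 IDR summits.

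Short letter strings were counted in the promoters, as a description with no test. In windows of 300 bases, 250 before and 50 after the 5′ end, the median G+C content was 38% over collagens and 34.3% over all genes. The letters TATAAA, those of a TATA box, were found on either strand in 115 collagen windows (66.1%), against 37.95% of all windows. GATAAG was in 47 (27.0%), against 16.7%. AGGTCA, a half-site of nuclear hormone receptors, was in 26 (14.9%), against 8.27%, and GAGAGA was in 50 (28.7%), against 21.8%. TTTCAG, the letters of the worm splice acceptor, which also precede trans-spliced starts, was searched on the gene strand only and was in 42 (24.1%), against 39.6%. Among collagens with and without a pooled candidate, the shares were 53.9% of 39 and 69.6% of 135 for TATAAA, and 38.5% and 23.7% for GATAAG. The other strings had closer shares, at 15.4% and 14.8% for AGGTCA, 30.8% and 28.2% for GAGAGA, and 25.6% and 23.7% for TTTCAG.

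The promoters of dpy-13, which had a weak pooled candidate, and bli-2, which had none in any list, show that both letter strings occurred with and without a region. Each is the 120 bases before the 5′ end on the gene's own strand, chrIV:4235494-4235613 (ce11, plus) and chrII:5652435-5652554 (ce11, minus), with the GATAAG and TATAAA matches in capitals.
dpy-13: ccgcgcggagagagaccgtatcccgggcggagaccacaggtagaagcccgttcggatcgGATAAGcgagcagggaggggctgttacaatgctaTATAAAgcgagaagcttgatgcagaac
bli-2: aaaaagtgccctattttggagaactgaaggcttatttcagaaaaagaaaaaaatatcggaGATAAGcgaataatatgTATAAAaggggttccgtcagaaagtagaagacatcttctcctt
TATAAA began 27 bases before the annotated 5′ end of dpy-13 and 43 bases before that of bli-2, and GATAAG began 61 and 60 bases before. The dpy-13 window had 57.5% G+C and the bli-2 window 34.2%.

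The other genes of the cuticle pathway were counted in the same way. Of 12 genes for collagen processing and cross-linking, 1 had an IDR promoter summit and 8 a pooled candidate (66.7%), at a median signal of 12.3. The 1 was pdi-2, a protein disulfide isomerase that is a subunit of the prolyl 4-hydroxylase of collagen, at 54.5 and -66 bp, in no other protein-coding promoter. Of 35 cuticlin genes, which encode another class of cuticle protein, 0 had an IDR summit and 19 (54.3%) a pooled candidate, at a median of 8.65. Of 7 genes of the embryonic apical matrix, 4 had a pooled candidate (57.1%) and 0 an IDR summit, at a median of 19.8. For the 13 epidermal regulators the counts were 5 (38.5%) and 0, at a median of 18.9. Of 6 other collagens, 3 had a candidate (50%), at a median of 22.44. Among them bli-6, a cuticle collagen outside the symbols used here, had an IDR summit at 74.7 and -367 bp. That summit was closer to hrpf-2, at -175 bp. The cuticlin, processing, apical matrix and other collagen lists thus had pooled candidates at more than the 39.2% of all genes. The family's collagens were below that share, and the regulators narrowly so. Median signals of the family, the cuticlins and the processing genes were below the 16.04 of all genes with a candidate. Those of the remaining lists were above it. The IDR share over all genes was 11.4%, and counts of 0 in the lists of 7 and 13 genes say little beside it. The lists are small and these differences were not tested.

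The collagens were set beside 3 other families. Chemoreceptor genes had an IDR summit in 10 of 1171 promoters (0.854%) and a pooled candidate in 9.74%, and nuclear hormone receptor genes in 10 of 269 (3.72%) and 33.1%. The collagen shares, 1.72% and 22.4%, were between those of these 2 families in both lists. Ribosomal protein genes were far above all 3, with an IDR summit in 66 of 76 promoters (86.8%) and a median pooled signal of 99.6.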

How the data were processed

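The data used were lists of ChIP-seq regions for eGFP-tagged MEP-1 on ce11, from whole embryos. Each deposited region has a signal value, which is the authors' measure of strength. It also has a q-value, deposited by the authors as −log10, and the offset of its summit, a deposited position in another unit (bp from the region's start). Per the labels, the candidate lists hold peaks and background as input for IDR. The aligner, peak caller and IDR cutoff were not given in the sources used here. Per the accompanying file descriptions, replicate 1 and the pooled reads had a control alignment on ce11, and none is listed for replicate 2. The lists hold 2404 (IDR), 30000 (pooled), 25216 (replicate 1) and 30000 (replicate 2) regions. All 2404 IDR regions are in the pooled list and share its highest −log10 q-value, 3.70, so regions were ranked by signal. Read depth is unknown, and the number of regions per list limits what can be seen. Exact Clopper-Pearson intervals (95%) cover counting error over genes only.

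Genes came from Ensembl release 115 and sequence from the RefSeq WBcel235 genome. Summits were assigned with Python 3.11.15, NumPy 2.4.6, pandas 2.3.3 and SciPy 1.17.1, and figures drawn with matplotlib 3.10.9. The assignment was tested on simulated data, in which 2000 summits planted in promoters over 19973 genes were recovered at 100%; this checks coordinates only. With 1 condition there is no test over samples, and counts and medians are given beside those of all genes. Members, gene lists and motifs were chosen with earlier results of these data known. Named genes are members with an IDR promoter summit, the 15 further members with the strongest pooled candidate, every dpy, rol, sqt and bli member, and up to 4 genes per other list with an IDR summit. Alternatives were other windows, overlap rules, transcript starts, cutoffs and each replicate alone. The ce10 lists are not used here.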

Additional observations from a re-analysis of the deposited data

How the results depend on the processing

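A count was taken as moved when it changed by more than 1.5 times. A median was taken as moved when it changed by at least 1 SD of its values from the 2 replicates alone. For the median distance this is a narrow limit. For the median signal the 2 values lie on different scales, so its limit is wide and its labels say little. By these limits 12 of 28 alternatives moved a result and 16 did not. With a promoter of 500 bp upstream to 100 bp downstream, 23 collagens had a pooled candidate (28.5% of all genes) and 0 had an IDR summit nearest to their own 5′ end. With 2000 bp upstream to 500 bp downstream, 63 had a candidate (52% of all genes), 6 had an IDR summit (col-72, col-85 and col-94 were added; 14.7% of all genes), and 4 had one nearest to their own 5′ end. The 10000 strongest pooled candidates left 13 collagens (23% of all genes). Letting genes of every biotype compete, an alternative chosen after seeing the data, left 0 summits nearest to a collagen. Keeping the stronger IDR regions only, those above the median signal, gave a median distance to the nearest summit of 27017 bp, against 29767 bp over all genes, as it has fewer summits. With 1 replicate alone there is no IDR set, so its 2404 strongest regions took the set's place. They gave 3 to 4 collagen promoters (col-2 added by replicate 1), a median distance of 17599 to 18638 bp, and 1 to 2 members with a region nearest to their own 5′ end (chosen after seeing the data). All candidates of 1 replicate gave 35 to 51 collagens and a median signal of 3.82 to 9.13, on scales that differ between lists. The collagen share of IDR summits, or of the regions in their place, was lower than that of all genes under every alternative run for it. Counts of summits matched in both replicates, 8 as reported and 10 under both other matching rules, need both replicates. No paired analysis was possible because the labels give 1 group. Alternatives on ce10 were not run, since no ce10 annotation was used here. With 2 replicates and unknown read depth, a missing region is not shown to be an unbound promoter.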
